A study of Mus musculus with 6 samples.

Results

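Transcripts of heat shock proteins and chaperones were measured in sorted Kupffer cells, which are macrophages that live in the sinusoids of the liver. The genes were chosen by symbol from the protein-coding genes of the count table: the HSP70, HSP110, HSP90, HSP60, HSP10 and small heat shock protein families, the J-domain proteins, the CCT subunits, the Bag proteins, the heat shock factors, and the cochaperones St13, Stip1, Chordc1, Ahsa1 and Ahsa2. The rule found 98 of the 54532 genes in the table. It reads symbol and biotype and no measured value, but it was chosen with earlier results of these data known. By textbook location 64 act in the cytosol or nucleus, 13 in the endoplasmic reticulum (ER) and 10 in mitochondria, and 11 were kept apart as other or unassigned. Of the 98 genes, 84 had enough reads to be tested. The 14 others had at most 17 reads in any library, and 4 of them (Hspb3, Hspb7, Dnajc5b and Dnajc5g) had 0 reads in all 6.

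Kupffer cells of male Trem2_KO mice (3 libraries) were compared with those of male wild-type littermates (WT, 3 libraries). Mice of both groups were 8 weeks old when a high fat diet began and stayed on it for 8 weeks. TREM2 is a surface receptor of macrophages that binds lipids. The labels do not say which part of Trem2 was deleted, how the sort was gated, or whether each library came from a separate mouse, so the p-values measure the spread between these libraries, which may be technical.

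Chaperones bind unfolded or partly folded proteins and keep them from aggregating. HSP70 proteins bind and release short hydrophobic stretches in an ATP-driven cycle, which J-domain proteins start and HSP110 and Bag proteins reset, and HSP90 takes over clients such as kinases and steroid receptors. Heat shock factors bind inverted repeats of a short unit in the promoters of cytosolic and some mitochondrial chaperone genes, while the unfolded protein response acts on the ER chaperone genes through the ER stress element.

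Total counts ran from 15799351 to 17135603 per library, so that 3 reads, the most that a true level is likely to hide behind a count of 0, correspond to 0.175 to 0.19 CPM, the reads of a gene scaled to a fixed library size. This limit covers counting error only. Trem2 itself was read at 16.6, 17.3 and 14.5 CPM in Trem2_KO libraries, against 84.7, 90.0 and 84.2 CPM in WT libraries. Kupffer cell markers were abundant in every library, with a summed level of 48770 to 50020 CPM in Trem2_KO and 54240 to 56100 CPM in WT. Of 12, 9 were called lower (75%, against 15.1% of all genes tested). Some markers of other cells were called as well, where 30.3% of all genes tested were called. Of 13 sinusoidal endothelial markers 10 were higher (76.9%, against 15.3% of all genes) and 1 lower (7.69%, against 15.1%). They summed to 1970 to 1983 CPM in Trem2_KO and 1999 to 2018 CPM in WT. Most of that sum was Cdh5, the marker called lower (1123, 1129 and 1130 CPM in Trem2_KO, 1249, 1256 and 1260 CPM in WT). Of 15 hepatocyte markers 3 were higher (20%) and 8 lower (53.3%), with sums of 1586 to 1615 CPM in Trem2_KO and 1749 to 1822 CPM in WT. Of 8 tested monocyte markers 4 were higher (50%) and 1 lower (12.5%), with sums of 160.1 to 160.6 CPM in Trem2_KO and 146.8 to 149.5 CPM in WT. Lymphocyte and neutrophil markers each had 1 lower and 0 higher of 4 tested. That is 25% called, below the 30.3% of all genes. Their sums were 16.1 to 20.4 and 182.6 to 192.1 CPM in Trem2_KO, against 19.5 to 22.5 and 192.3 to 209.1 CPM in WT. Nearly all of the neutrophil sum was Csf3r, its called marker (181, 178 and 188 CPM in Trem2_KO, 187, 195 and 204 CPM in WT). Stellate markers had 0 called of 7 tested (11.6 to 13.2 CPM in Trem2_KO, 14.0 to 16.9 CPM in WT). No marker was at 0 in all libraries. The part of these cells in the chaperone results was not tested, and in bulk RNA fewer cells of a type cannot be told apart from less RNA per cell.

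Chaperone transcripts were mostly lower in Trem2_KO Kupffer cells. Of the 84 tested genes, 42 were lower and 9 higher at an adjusted p under 0.05 (edgeR's quasi-likelihood test, Benjamini-Hochberg adjustment over all genes tested), and 33 were not called. That is 60.7% called, against 30.3% of all 13776 genes tested. The lower calls made up 50% of the members, against 15.1% of all genes (16.4% of the protein-coding ones), and the higher calls 10.7%, against 15.3% of all genes. The median log2 change was -0.16 over the members, against -0.005 over all genes. The groups did not overlap for 59 members, or 70.2%, against 41.6% of all genes. Together the members took between 1.13% and 1.15% of the reads in Trem2_KO libraries and 1.38 to 1.40% in WT libraries.

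Most changes were small and a few cytosolic ones were large. A fall of at least 1.5-fold was called for 11 members, 13.1% of those tested against 1.81% of all genes, and all 11 are cytosolic: Hsph1, Bag3, Hspb1, Hspa1b, Ahsa2, Dnajb1, Dnaja1, Hsp90aa1, Hspa1a, Chordc1 and Stip1. The first 4 of these fell at least 2-fold. The estimated biological coefficient of variation (BCV) was 0.0378. With it fixed at 0.2, a value chosen to stand for a wider spread between animals, 7 lower calls were left (Hsph1, Bag3, Hspb1, Hspa1b, Ahsa2, Dnajb1 and Dnaja1) and 1 higher call (Hspa12a).

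**Figure D1:**
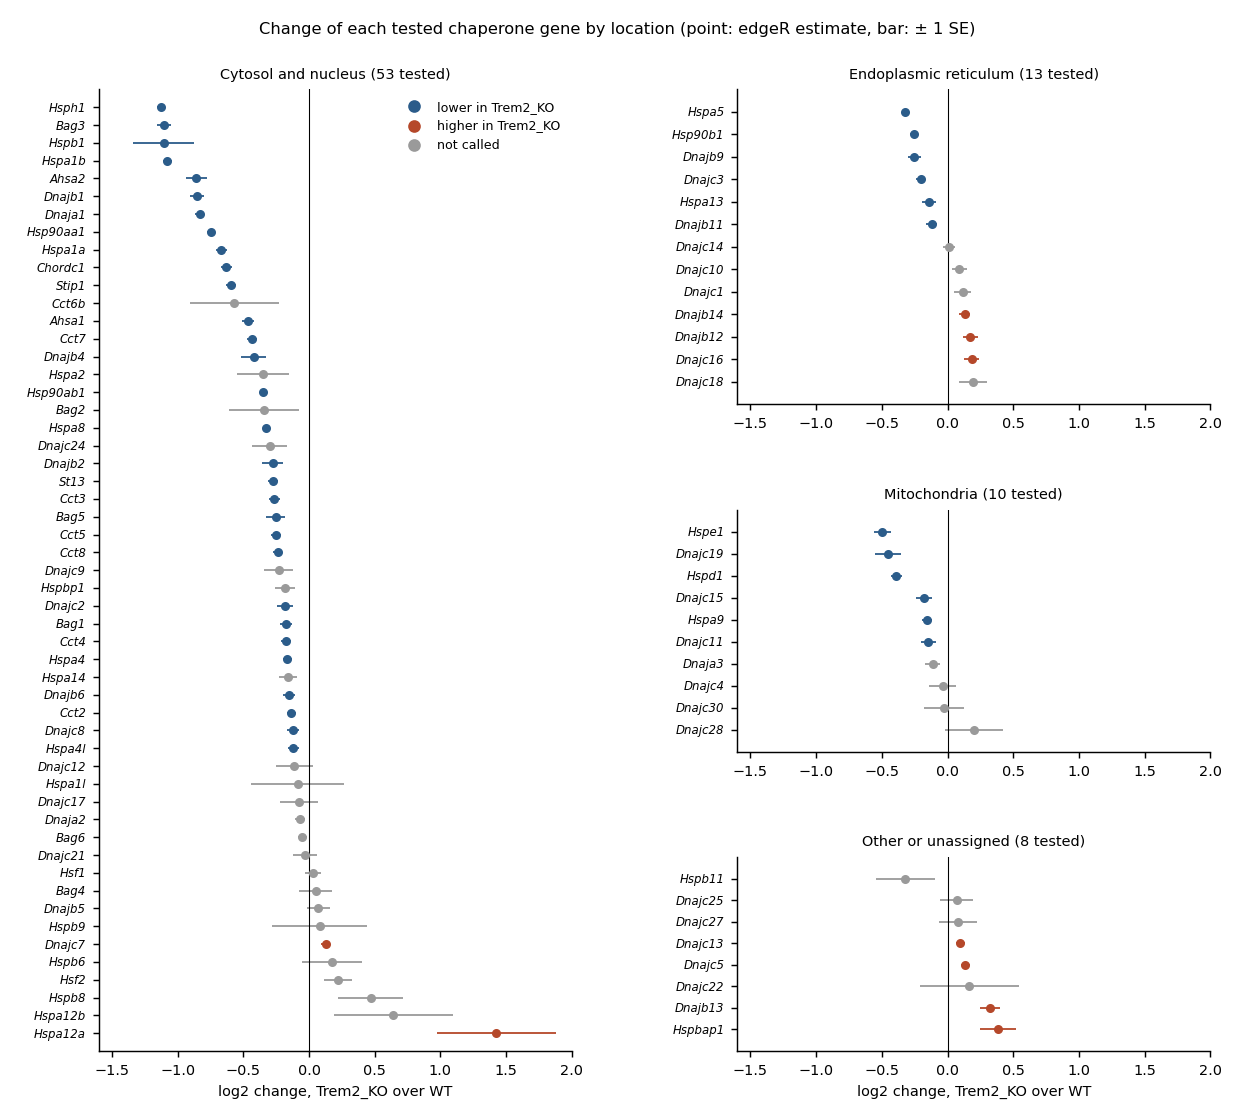
Log2 change (Trem2_KO over WT, horizontal axis) of each tested chaperone gene, in panels by location. Points are edgeR estimates from 3 libraries per group, bars are 1 standard error on each side, and colours give the call. The 11 largest called falls, between -1.13 and -0.59, are all in the cytosolic panel, while ER genes lie between -0.32 and 0.19 and mitochondrial genes between -0.50 and 0.20.

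Several of the cytosolic genes with the largest falls, such as Hsph1, Hspa1b, Dnajb1 and Hspb1, are well known targets of the heat shock factor HSF1. Of 53 tested cytosolic and nuclear members, 30 were lower (56.6%, against 15.1% of all genes) and 2 higher (3.77%, against 15.3%). Their median log2 change was -0.23. Their summed level was 7612, 7560 and 7460 CPM in Trem2_KO libraries, against 9794, 9965 and 9752 CPM in WT libraries.

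The inducible HSP70 system carried the largest falls. Hsph1, an HSP110 protein that resets HSP70 by nucleotide exchange, was read at 145, 144 and 138 CPM in Trem2_KO libraries, against 311, 308 and 315 CPM in WT libraries. Every knockout library was well below every wild-type one, and the log2 change was -1.13 (SE 0.034, edgeR adjusted p = 3.3e-33). Hspa1b, an HSP70 that cells make mainly under stress, was read at 124, 123 and 124 CPM in Trem2_KO libraries, against 261, 258 and 263 CPM in WT libraries. Again the groups lay far apart, with a log2 change of -1.08 (SE 0.035, adjusted p = 7.8e-32). Its near-identical neighbour Hspa1a stood at 89.8, 91.5 and 90.4 CPM in Trem2_KO libraries, against 152, 137 and 143 CPM in WT libraries (log2 change -0.67, SE 0.042, adjusted p = 3.5e-19). Reads of this pair are hard to assign: 56.5% of the 100-base windows of the Hspa1a transcript and 49.9% of those of Hspa1b also occur in another gene's transcript. Summed, the pair was at 213.7, 214.5 and 214.0 CPM in Trem2_KO libraries and at 413.0, 394.9 and 406.1 CPM in WT libraries, a log2 change of -0.92 (SE 0.031, adjusted p = 7.0e-31).

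The partners of these proteins fell as well. Bag3, which links HSP70 to small heat shock proteins and to autophagy, was read at 41.2, 43.2 and 43.8 CPM in Trem2_KO libraries, against 87.5, 89.3 and 99.3 CPM in WT libraries (log2 change -1.11, SE 0.053, adjusted p = 5.8e-24). Dnajb1, the J-domain protein that works with stress-induced HSP70, was read at 60.2, 55.4 and 50.4 CPM in Trem2_KO libraries, against 98.2, 105 and 97.1 CPM in WT libraries (log2 change -0.85, SE 0.053, adjusted p = 1.8e-18). Both genes separated the groups with a wide gap. Dnaja1, a farnesylated J-domain protein of the cytosol, was read at 231, 231 and 215 CPM in Trem2_KO libraries, against 420, 403 and 383 CPM in WT libraries (log2 change -0.83, SE 0.034, adjusted p = 1.7e-25). The transcript of Dnaja1 shares 24.0% of its windows with other genes, most with Gm15542. Dnaja1 also overlaps Smu1 on the other strand, which had 4378 reads and a log2 change of -0.18. Hspb1, a small heat shock protein that holds unfolded proteins without ATP, was nearly absent, with 39, 21 and 43 reads in Trem2_KO libraries (2.25, 1.27 and 2.53 CPM), against 72, 83 and 50 reads in WT libraries (4.59, 5.30 and 3.19 CPM). The groups came close but did not overlap (log2 change -1.10, SE 0.23, adjusted p = 1.7e-04). The transcript of Hspb1 shares 42.7% of its windows with other genes, most with the pseudogene Hsp25-ps1. None of the 4 other tested genes with a numbered Hspb symbol (Hspb6, Hspb8, Hspb9 and Hspb11) was called, and Hspb8, at 0.47, had a positive estimate (adjusted p = 0.15).

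**Figure D2:**
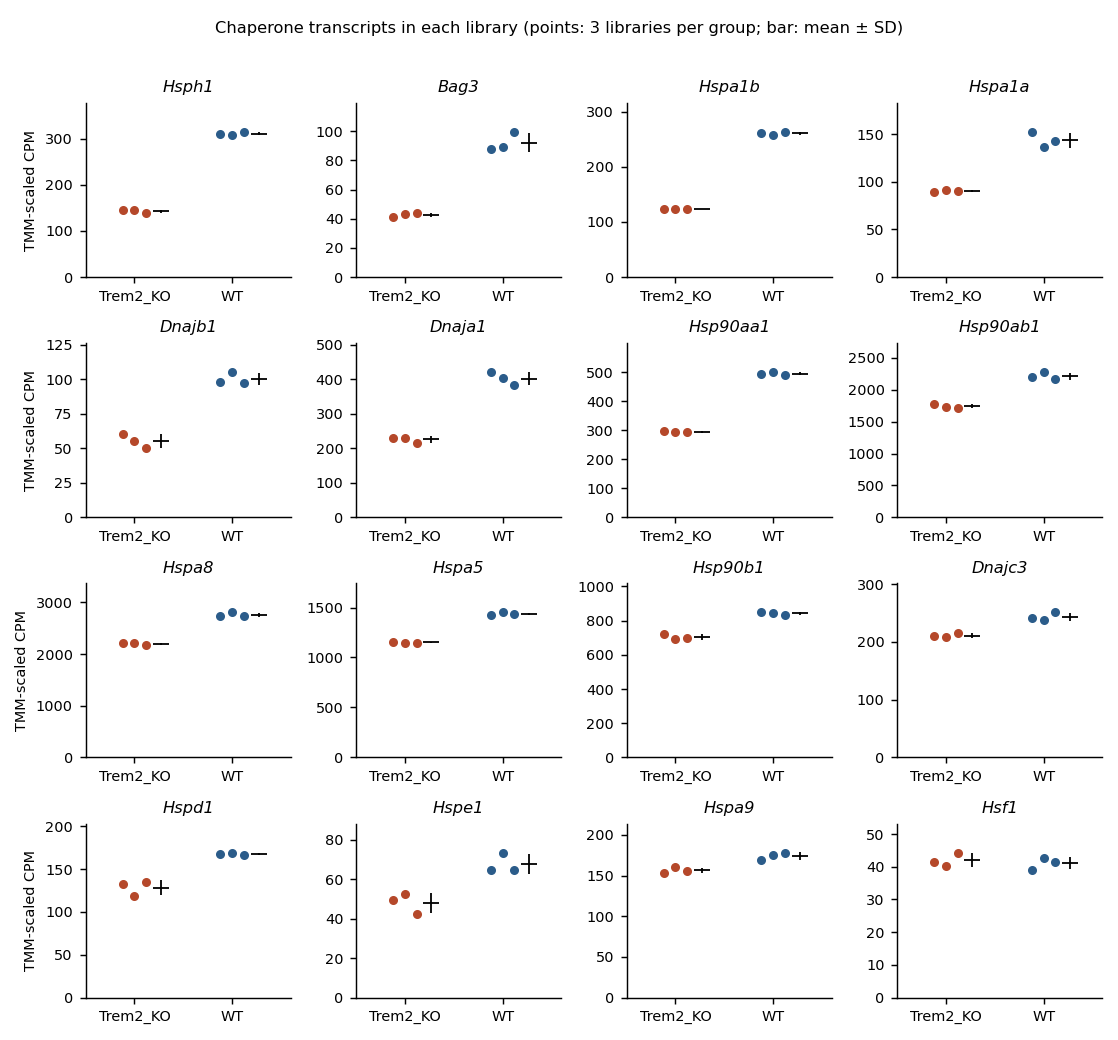
TMM-scaled CPM of 16 chaperone genes in each of the 3 Trem2_KO and 3 WT libraries, with mean and SD drawn beside the points. The groups are apart in 15 panels, from Hsph1 (138 to 145 CPM in Trem2_KO, 308 to 315 CPM in WT) to Hspa9, and they overlap for Hsf1.

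Promoter windows were searched for the repeats that a heat shock factor is known to bind. RefSeq promoter windows (GRCm38.p6, 250 bases before to 50 after a gene's start) were found by symbol for 79 of the 98 members and 68 of the 84 tested. The search covered both strands and looked for a pair of facing heat shock units, GAANNTTC or TTCNNGAA. Of the 11 genes that fell at least 1.5-fold, Hsph1, Hspb1, Hspa1b, Hspa1a and Dnaja1 had a match before the start, while that of Bag3 lay after it and those of Chordc1 at or after it. The windows of Ahsa2, Dnajb1 and Stip1 held none, and no match was found for Hsp90aa1. Stretches with a match before the start are printed here 5′ to 3′ on the gene's strand, with the matches in capitals, for 5 of these genes and for Dnajb4, a J-domain gene with a smaller fall (-0.42). The stretches are chr5:149636336-149636395 (minus strand) for Hsph1, chr17:34959309-34959368 (minus) for Hspa1b, chr17:34972227-34972286 (minus) for Hspa1a, chr5:135887786-135887845 (plus) for Hspb1, chr4:40722318-40722377 (plus) for Dnaja1 and chr3:152193846-152193885 (minus) for Dnajb4.
Hsph1: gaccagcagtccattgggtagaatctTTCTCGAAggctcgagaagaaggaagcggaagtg
Hspa1b: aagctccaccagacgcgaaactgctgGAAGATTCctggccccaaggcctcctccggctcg
Hspa1a: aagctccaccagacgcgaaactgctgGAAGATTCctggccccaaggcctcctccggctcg
Hspb1: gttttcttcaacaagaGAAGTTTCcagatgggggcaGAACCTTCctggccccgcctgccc
Dnaja1: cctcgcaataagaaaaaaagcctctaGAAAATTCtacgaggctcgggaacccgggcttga
Dnajb4: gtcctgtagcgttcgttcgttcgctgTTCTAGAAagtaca

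The Hspa1a and Hspa1b stretches are the same, and of the 250 bases before the start of these genes 247 are identical. Their log2 changes were -0.67 and -1.08. Over the 68 tested members with a window, 17 held the paired motif, or 25.0%, against 14.4% of the 9910 tested genes with a window and 15.1% of all 32851 windows. Of the members called lower 13 of 33 held it, of those not called 4 of 27, and of those called higher 0 of 8. The 17 members with the motif had a median log2 change of -0.42 and the 51 without it -0.12. Of all 1431 tested genes that held it, 237 were lower and 233 higher, and of the 8479 without it 1359 were lower and 1339 higher. A longer run, in which 1 more facing unit (GAA or TTC) follows the pair at the same spacing of NN and which therefore contains the paired motif, was found in 0.603% of all windows and in 5 tested members. These were Chordc1, Dnajb6, Hspd1, Hspe1 and Hsph1, and all 5 were called lower. Hspd1 and Hspe1 share the same run, and the near-identical Hspa1a and Hspa1b both count among the members with the paired motif. These counts are therefore not of independent promoters. Of all 58 tested genes that held the longer run, 18 were lower and 5 higher. A match is a description of these letters and says nothing about binding in these cells.

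**Figure D3:**
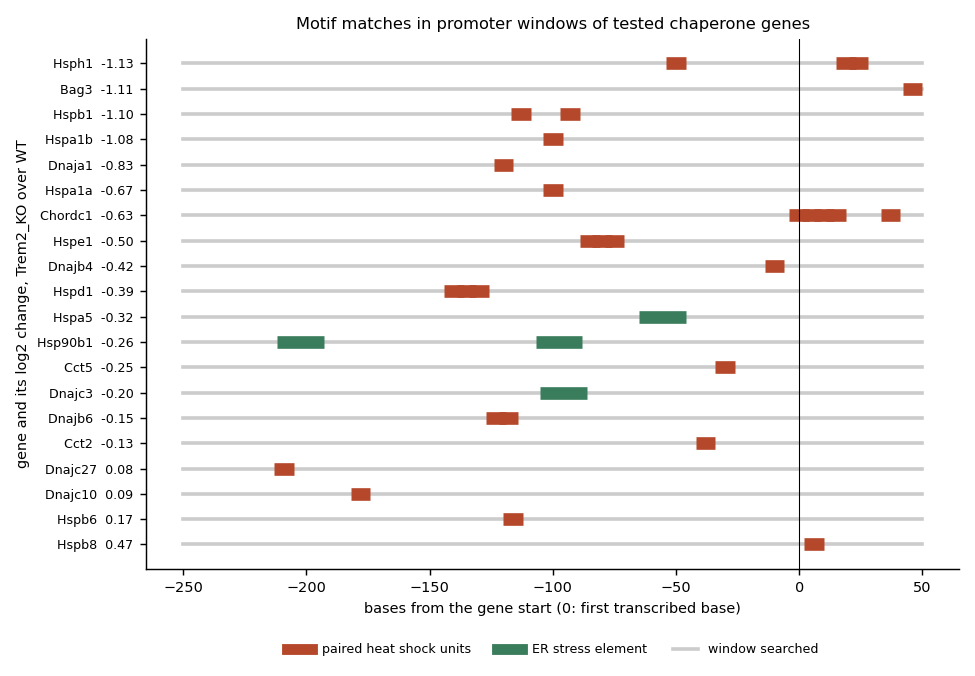
Position of motif matches relative to the gene start (horizontal axis, bases) in 1 RefSeq promoter window for each of the 20 tested members with a match, ordered by log2 change. Red boxes are facing pairs of heat shock units, green boxes are ER stress elements and grey lines are the windows. Genes with a paired match run from Hsph1 at -1.13 to Hspb8 at 0.47, and the ER stress element lies in Hspa5, Hsp90b1 and Dnajc3.

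The abundant constitutive chaperones fell by less. Hspa8, the HSP70 that every cell makes for routine folding, was read at 2206, 2214 and 2173 CPM in Trem2_KO libraries, against 2734, 2806 and 2744 CPM in WT libraries. The groups were clearly apart at a log2 change of -0.33 (SE 0.023, adjusted p = 1.6e-17). Of its transcript windows 63.4% also occur in other genes, most in the pseudogene Gm15459. Hsp90ab1, the constitutive HSP90, was read at 1772, 1738 and 1714 CPM in Trem2_KO libraries, against 2207, 2275 and 2163 CPM in WT libraries (log2 change -0.35, SE 0.024, adjusted p = 1.6e-17). Hsp90aa1, its stress-inducible counterpart, was read at 298, 292 and 293 CPM in Trem2_KO libraries, against 494, 500 and 490 CPM in WT libraries (log2 change -0.75, SE 0.029, adjusted p = 3.0e-28). All 3 genes were lower in each knockout library than in any wild-type library. Hsp90aa1 shares 47.5% of its windows with other genes, most with Gm12346.

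Ratios of inducible to constitutive forms, compared per length, were lower in every Trem2_KO library. The FPKM ratio of Hsp90aa1 to Hsp90ab1 was 0.129, 0.128 and 0.130 in Trem2_KO libraries, against 0.171, 0.168 and 0.173 in WT libraries. That of Hspa1a plus Hspa1b to Hspa8 was 0.145, 0.145 and 0.148 in Trem2_KO libraries, against 0.227, 0.212 and 0.223 in WT libraries. Neither ratio overlapped between the groups, and the ratio of Dnajb1 to Hspa8 did not either (0.0338 ± 0.0028 in Trem2_KO, 0.0486 ± 0.0014 in WT, SD, n = 3 each). Each gave p = 0.1 in an exact two-sided permutation test, the smallest p that 3 against 3 allows, and 0.12 after adjustment over the 6 ratios compared. The same p came from Hspa1b to Hspa1a (1.44 ± 0.019 in Trem2_KO, 1.92 ± 0.098 in WT). Hsp90b1 to Hspa5 gave it too and was higher in Trem2_KO (0.642 ± 0.011, against 0.615 ± 0.0063 in WT). Such separation was therefore not particular to inducible over constitutive forms.

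In absolute terms the abundant genes made up much of the loss. The summed CPM of all members was 11349, 11240 and 11189 in Trem2_KO libraries, against 14019, 14195 and 13967 in WT libraries, a net difference of -2801 CPM between the means. Hspa8 gave 20.1% of it, Hsp90ab1 16.9%, Hspa5 10.2% and Hsp90aa1 7.15%, together 54.4%. By location the cytosol gave 81.9%, the ER 16.2% and mitochondria 3.43%, while the genes of other location were higher in Trem2_KO. Ordered by mean FPKM over the 6 libraries, the leading transcripts were Hsp90ab1 at 657, Hspa8 at 574, Hspa5 at 305 and Hsp90b1 at 191 FPKM, followed by Hsp90aa1.

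**Figure D4:**
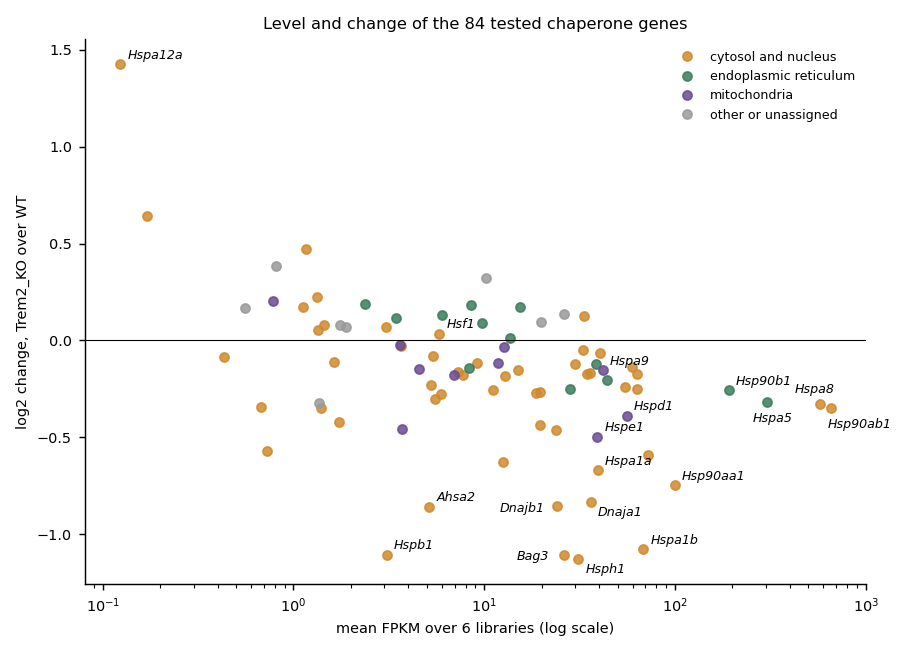
Mean FPKM over 6 libraries (horizontal log axis) against log2 change, Trem2_KO over WT (vertical axis), for the 84 tested chaperone genes, coloured by location. The most abundant genes, Hsp90ab1 and Hspa8, lie at -0.35 and -0.33, and the largest falls (Hsph1, Bag3, Hspb1, Hspa1b) occur at lower levels.

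Cochaperones that serve HSP90 and HSP70 fell together. Of 6 tested, 5 were lower (83.3%, against 15.1% of all genes) and 0 higher, with a median log2 change of -0.53. Ahsa2, a relative of the HSP90 ATPase activator Ahsa1, was read at 15.8, 16.7 and 17.6 CPM in Trem2_KO libraries, against 31.7, 28.4 and 30.8 CPM in WT libraries (log2 change -0.86, SE 0.080, adjusted p = 6.5e-13). Its transcript shares 56.8% of its windows with other genes, most with Usp34 on the other strand, which had 8080 reads and a log2 change of 0.20. Chordc1, an HSP90-binding protein, was read at 73.3, 73.7 and 75.5 CPM in Trem2_KO libraries, against 116, 113 and 115 CPM in WT libraries (log2 change -0.63, adjusted p = 1.4e-17). Stip1, which passes clients between HSP70 and HSP90, was read at 125, 132 and 120 CPM in Trem2_KO libraries, against 191, 192 and 184 CPM in WT libraries (log2 change -0.59, adjusted p = 1.1e-18). None of these 3 genes overlapped between the groups. Ahsa1 at -0.46 and St13, another HSP70 cochaperone, at -0.27 were also lower, and Hspbp1, a nucleotide exchange factor, was at -0.18 (adjusted p = 0.063).

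CCT, the barrel that folds actin and tubulin, fell modestly. Of 7 tested subunit genes 6 were lower, or 85.7%, against 15.1% of all genes. These were Cct2, Cct3, Cct4, Cct5, Cct7 and Cct8, with log2 changes between -0.43 and -0.13. Cct7 changed most, with 117, 118 and 107 CPM in Trem2_KO libraries, against 150, 163 and 150 CPM in WT libraries (log2 change -0.43, adjusted p = 2.0e-12). Cct6b, a subunit best known from testis, had few reads and was at -0.57 (SE 0.34, adjusted p = 0.21). The other subunit genes, Tcp1 and Cct6a, fall outside the symbol and biotype rule and were at -0.26 and -0.36 (adjusted p = 9.7e-06 and 3.4e-09). The call of Cct2 was lost once the trend with gene length was removed (-0.07, adjusted p = 0.13).

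Other HSP70 and Bag genes changed less. Among the 14 tested HSP70 and HSP110 genes 9 were lower (64.3%, against 15.1% of all genes) and 1 higher (7.14%, against 15.3%). Hspa4, an HSP110 relative, was lower at -0.17 (adjusted p = 1.2e-04) and Hspa4l at -0.12 (adjusted p = 0.027). The call of Hspa4l was lost without Trem2_KO replicate 1 (edgeR adjusted p = 0.083), Trem2_KO replicate 2 (edgeR adjusted p = 0.12) or WT replicate 3 (edgeR adjusted p = 0.16). It was also lost in DESeq2, in limma fits of FPKM and with scaling to total counts. Besides Bag3, Bag1 at -0.18 and Bag5 at -0.25 were lower, and Bag2, Bag4 and Bag6 were not called. Bag1 lost its call once the trend with gene length was removed (-0.07, adjusted p = 0.31).

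Cytosolic genes in the other direction were Dnajc7 and Hspa12a. Dnajc7, a J-domain protein with TPR repeats that binds HSP70 and HSP90, was read at 167, 167 and 173 CPM in Trem2_KO libraries, against 157, 156 and 152 CPM in WT libraries (log2 change 0.13, SE 0.036, adjusted p = 0.0054). The rise is small but the groups did not overlap. Dnajc7 overlaps Nkiras2 (-0.18) and Cnp (-0.15) on the other strand. Hspa12a, a distant HSP70 relative, had 24, 16 and 13 reads in Trem2_KO libraries (1.39, 0.97 and 0.76 CPM), against 6, 8 and 4 reads in WT libraries (0.38, 0.51 and 0.26 CPM). Its log2 change was 1.43 (SE 0.46, adjusted p = 0.013), but the call was lost without Trem2_KO replicate 1 (adjusted p = 0.12), without WT replicate 3 (adjusted p = 0.072) and in DESeq2 (adjusted p = 0.055).

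The heat shock factors themselves were not called. Hsf1, the main activator of the heat shock response, was read at 41.5, 40.2 and 44.3 CPM in Trem2_KO libraries, against 39.1, 42.7 and 41.3 CPM in WT libraries. The groups overlapped, and the log2 change was 0.03 (SE 0.061, adjusted p = 0.72). Hsf2 was at 0.22 (SE 0.11, adjusted p = 0.11), and Hsf3, Hsf4 and Hsf5 had too few reads to be tested. The activity of HSF1 is known to be set mainly after translation, which transcript levels do not show.

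ER members were called in both directions. Of 13 tested, 6 were lower (46.2%, against 15.1% of all genes) and 3 higher (23.1%, against 15.3%). Their median log2 change was 0.01. The 8 genes whose chaperone domain lies in the ER lumen had 6 lower and 0 higher (median -0.17), and the 5 J-domain proteins of the ER membrane that face the cytosol had 0 lower and 3 higher (median 0.17). This division was made with the values known and is a description. Lumen genes summed to 2426, 2376 and 2395 CPM in Trem2_KO libraries, against 2876, 2892 and 2862 CPM in WT libraries. Membrane genes summed to 309, 318 and 323 CPM in Trem2_KO libraries, against 299, 291 and 287 CPM in WT libraries. These sums went in opposite directions, but since the sets were drawn with the values known this adds no support for the division.

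In the lumen, Hspa5 (BiP, the HSP70 of the ER) was read at 1158, 1147 and 1147 CPM in Trem2_KO libraries, against 1429, 1450 and 1430 CPM in WT libraries (log2 change -0.32, SE 0.024, adjusted p = 4.1e-16). Hsp90b1 (GRP94, the HSP90 of the ER) was read at 722, 693 and 700 CPM in Trem2_KO libraries, against 848, 845 and 834 CPM in WT libraries (log2 change -0.26, SE 0.026, adjusted p = 1.3e-11). Both were lower in every knockout library. Dnajb9, a J-domain protein that BiP uses to restrain the stress sensor IRE1, was read at 63.7, 67.5 and 66.2 CPM in Trem2_KO libraries, against 80.7, 76.6 and 77.8 CPM in WT libraries (log2 change -0.25, adjusted p = 4.3e-05). Dnajc3, which inhibits the kinase PERK, was read at 210, 208 and 215 CPM in Trem2_KO libraries, against 241, 237 and 251 CPM in WT libraries (log2 change -0.20, adjusted p = 2.1e-06). These 2 J-domain genes also separated the groups.

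Weaker calls in the lumen were Hspa13 and Dnajb11. Hspa13, an HSP70-like protein of microsomes, was read at 54.6, 52.4 and 55.2 CPM in Trem2_KO libraries, against 62.5, 56.3 and 59.9 CPM in WT libraries (log2 change -0.14, adjusted p = 0.043). Its adjusted p passed 0.05 on leaving out any 1 of the libraries except WT replicate 2 (0.051 to 0.21). Dnajb11, a BiP partner, was at -0.12 (adjusted p = 0.019), and its call was lost without Trem2_KO replicate 3 (adjusted p = 0.11), WT replicate 1 (0.054) or WT replicate 2 (0.12). The calls of Hspa13 and Dnajb11 were also lost in DESeq2, in limma fits of FPKM and with scaling to total counts. That of Dnajb11 was lost once the trend with gene length was removed as well. The disulfide reductase Dnajc10 at 0.09 and Dnajc1 at 0.11 were not called.

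The ER stress element, searched as CCAAT and CCACG with 9 bases between them on either strand, was found in 0.119% of all promoter windows and in 3 members, Hspa5, Hsp90b1 and Dnajc3. All 3 are lumen genes that were called lower. Of the 17 tested genes that hold it in all, 11 were lower and 3 higher. It is printed in capitals for Hspa5 at chr2:34772004-34772063 (plus strand) and Dnajc3 at chr14:118937806-118937865 (plus strand), from RefSeq, GRCm38.p6.
Hspa5: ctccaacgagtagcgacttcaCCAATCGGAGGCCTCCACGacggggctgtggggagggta
Dnajc3: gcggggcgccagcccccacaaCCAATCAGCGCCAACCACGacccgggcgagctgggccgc

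On the cytosolic face, Dnajc16 was read at 57.4, 60.2 and 61.0 CPM in Trem2_KO libraries, against 50.3, 54.8 and 52.3 CPM in WT libraries (log2 change 0.18, adjusted p = 0.0070). Dnajb12, which helps to clear misfolded membrane proteins, was read at 55.7, 53.3 and 55.8 CPM in Trem2_KO libraries, against 51.5, 45.3 and 49.2 CPM in WT libraries (log2 change 0.17, adjusted p = 0.014). Its relative Dnajb14 was read at 95.9, 96.4 and 105 CPM in Trem2_KO libraries, against 93, 90.4 and 88.1 CPM in WT libraries (log2 change 0.13, adjusted p = 0.023). The groups did not overlap for these 3 genes, but the gaps were narrow. The call of Dnajc16 was lost without WT replicate 1 (adjusted p = 0.062) and that of Dnajb12 without WT replicate 2 (0.14). Dnajb14 lost its call without Trem2_KO replicate 3 (0.18), WT replicate 2 (0.054) or WT replicate 3 (0.094), and its estimate was -0.02 once the trend with gene length was removed (adjusted p = 0.83). Dnajb12 and Dnajb14 were not called in limma fits of FPKM, nor was Dnajb14 in DESeq2.

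**Figure D5:**
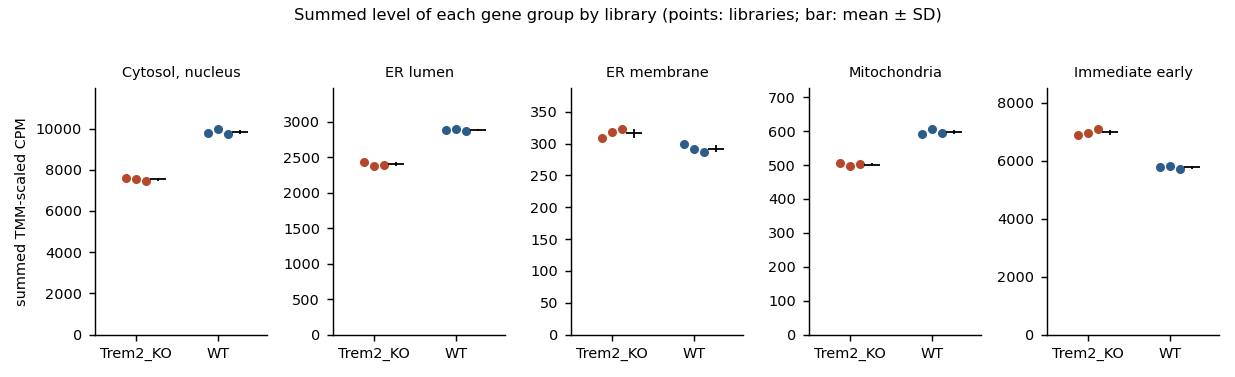
Summed TMM-scaled CPM of cytosolic and nuclear, ER lumen, ER membrane and mitochondrial chaperone genes and of 15 immediate early genes, for each Trem2_KO and WT library (points), with mean and SD. The cytosolic, ER lumen and mitochondrial sums were lower in Trem2_KO, and the ER membrane (309 to 323 CPM in Trem2_KO, 287 to 299 CPM in WT) and immediate early sums were higher. The ER lumen and ER membrane groups were divided with the values known.

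Mitochondrial chaperones were lower or not called. Of 10 tested, 6 were lower (60%, against 15.1% of all genes) and 0 higher, with a median log2 change of -0.15. Their sum was 505, 496 and 503 CPM in Trem2_KO libraries, against 592, 606 and 594 CPM in WT libraries. Hspd1 (HSP60, the chamber that folds imported proteins) was read at 132, 118 and 135 CPM in Trem2_KO libraries, against 168, 169 and 167 CPM in WT libraries (log2 change -0.39, SE 0.040, adjusted p = 2.4e-11). Hspe1 (HSP10, its lid) was read at 49.4, 52.4 and 42.3 CPM in Trem2_KO libraries, against 64.8, 73.4 and 64.9 CPM in WT libraries (log2 change -0.50, SE 0.065, adjusted p = 4.6e-07). Chamber and lid both separated the groups. The transcripts of Hspd1 and Hspe1 share 26.9% and 22.4% of their windows with other genes. Their FPKM ratio, Hspe1 to Hspd1, was 0.676 ± 0.12 in Trem2_KO and 0.722 ± 0.048 in WT (SD, n = 3 each, exact two-sided permutation p = 0.5).

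Hspd1 and Hspe1 lie head to head and overlap on opposite strands, and their promoter windows share a run of 4 facing units, read as overlapping matches of the 3-unit motif. It is shown in capitals on the Hspe1 strand, at chr1:55088038-55088097 (plus strand, RefSeq, GRCm38.p6).
Hspe1: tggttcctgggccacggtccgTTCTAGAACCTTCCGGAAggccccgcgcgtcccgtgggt

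Dnajc19, a J-domain protein of the inner membrane, was read at 12.9, 12.5 and 12.6 CPM in Trem2_KO libraries, against 18, 17 and 17.1 CPM in WT libraries (log2 change -0.45, SE 0.097, adjusted p = 1.9e-04). It overlaps Fxr1 on the other strand, which was at -0.18. Hspa9 (mortalin, the HSP70 of the matrix) was read at 154, 160 and 156 CPM in Trem2_KO libraries, against 169, 175 and 178 CPM in WT libraries (log2 change -0.15, adjusted p = 6.6e-04). Neither gene overlapped between the groups, though the gap was small for Hspa9. Dnajc15, an import motor partner, was read at 43.5, 40.4 and 44.1 CPM in Trem2_KO libraries, against 49.7, 48.8 and 46.5 CPM in WT libraries (log2 change -0.18, adjusted p = 0.015), and lost its call without Trem2_KO replicate 2 (0.11) or WT replicate 1 (0.069). Dnajc11 was at -0.15 (adjusted p = 0.043) and its adjusted p was 0.080 to 0.14 when Trem2_KO replicate 1, Trem2_KO replicate 3, WT replicate 2 or WT replicate 3 was left out. Dnajc15 and Dnajc11 were not called in DESeq2 or in limma fits of FPKM.

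Of 8 tested members of other or unassigned location, 4 were higher (50%, against 15.3% of all genes) and 0 lower. Dnajc5, a J-domain protein of secretory vesicles, was read at 196, 188 and 191 CPM in Trem2_KO libraries, against 169, 172 and 182 CPM in WT libraries (log2 change 0.14, adjusted p = 0.0025). Dnajb13, best known from sperm and cilia, was at 32.0, 30.1 and 31.5 CPM in Trem2_KO libraries, against 25.9, 22.0 and 27.1 CPM in WT libraries (log2 change 0.32, adjusted p = 6.1e-04). The groups did not overlap, but Dnajb13, with 2763 reads, overlaps Ucp2 on the other strand, with 203899 reads. Dnajc13, an endosomal J-domain protein, was at 0.10 (adjusted p = 0.026), and lost its call without Trem2_KO replicate 2 (0.052), Trem2_KO replicate 3 (0.18) or WT replicate 2 (0.22). Its estimate was -0.01 once the trend with gene length was removed (adjusted p = 0.82). Hspbap1, which binds Hspb1, was at 0.39 (adjusted p = 0.026), and lost its call without Trem2_KO replicate 1 (0.13), WT replicate 2 (0.076) or WT replicate 3 (0.12). Dnajc13 and Hspbap1 were not called in DESeq2 or in limma fits of FPKM. Hspbap1 also lost its call once the trend with gene length was removed.

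By family, the J-domain proteins were called in both directions. Of 38 tested, 13 were lower (34.2%, against 15.1% of all genes) and 7 higher (18.4%, against 15.3% of all genes). The higher share was thus near that of all genes. Their median log2 change was -0.05. The DnajC class had 6 lower (24%) and 4 higher (16%) of 25. Its sum was 1368, 1362 and 1397 CPM in Trem2_KO libraries and 1373, 1366 and 1388 CPM in WT libraries, which overlap. The remaining lower calls of the class were Dnajc2 at -0.18 and Dnajc8 at -0.12 in the nucleus and cytosol. The adjusted p of Dnajc2 was 0.051 to 0.087 without Trem2_KO replicate 1, Trem2_KO replicate 3 or WT replicate 1, and that of Dnajc8 was 0.065 to 0.14 when any library but WT replicate 1 was left out. Neither was called in DESeq2 or with scaling to total counts, and Dnajc8 also lost its call once the trend with gene length was removed. In the DnajB class Dnajb4 at -0.42, Dnajb6 at -0.15 and Dnajb2 at -0.27 were lower too, the last losing its call without Trem2_KO replicate 3 (0.087) or WT replicate 2 (0.076). Dnajb2 was not called in limma fits of FPKM either.

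Folding partners outside the symbol rule were read from lists. Of 13 ER partners 12 were lower (92.3%, against 15.1% of all genes) and 0 higher, with a median log2 change of -0.24. Manf, a secreted ER stress protein, was at 105, 106 and 96.1 CPM in Trem2_KO libraries, against 154, 156 and 148 CPM in WT libraries (log2 change -0.57). Herpud1 (-0.44), Sdf2l1 (-0.51) and Pdia6 (-0.25), which serve ER degradation, BiP cycling and disulfide formation, were lower as well. Of 20 cytosolic partners 11 were lower (55%), among them the HSP90 partners Fkbp4 (-0.53), Ptges3 (-0.43) and Ppid (-0.35). In the same list 1 was higher (5%, against 15.3% of all genes). That gene, Fkbp5, an HSP90-binding immunophilin that glucocorticoids induce, was read at 449, 463 and 448 CPM in Trem2_KO libraries, against 194, 203 and 200 CPM in WT libraries (log2 change 1.19, SE 0.031, adjusted p = 1.1e-35). Of 13 mitochondrial partners 1 was lower, the mortalin exchange factor Grpel1 (-0.22, adjusted p = 0.021), and 0 were higher. The lower share of this list, 7.69%, was below the 15.1% of all genes.

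Some members lie on the chromosome of the deleted gene. Chromosome 17 carries Hspa1a, Hspa1b and Hspa1l (13.4 Mb from Trem2), Bag6 (13.2 Mb) and Hsp90ab1 (2.77 Mb), and 3 of these 5 were lower. Fkbp5 lies 19.8 Mb from Trem2. Without chromosome 17, 39 of 79 tested members were lower (49.4%, against 15.1% of all genes) and 9 higher (11.4%, against 15.3%). Their median log2 change was -0.15. Effects of the deletion and of DNA that may have come with it near Trem2 cannot be told apart for the genes close to it.

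Immediate early genes, which like heat shock genes are known to be induced while tissue is taken apart, mostly moved the other way. Of 15, 11 were higher in Trem2_KO (73.3%, against 15.3% of all genes) and 3 lower (20%, against 15.1%). The sum of all 15 was 6895, 6955 and 7088 CPM in Trem2_KO libraries, against 5789, 5822 and 5721 CPM in WT libraries. Egr1 had a log2 change of 1.09, Fosb of 0.85, Atf3 of 0.79 and Nr4a1 of 0.57. Jund (-0.20), Ier3 (-0.34) and Jun (-0.11) were lower. The part of cell handling in the chaperone changes was not tested.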

How the data were processed

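RNA of sorted Kupffer cells was sequenced from libraries made with an Illumina TruSeq kit, per the labels. Per the submitters' processing notes, the tools included DESeq2 1.16.1, featureCounts 1.5.0-p3 and HISAT2 2.0.5, and the builds mm10 and GRCm38. The deposited counts are raw whole reads per gene, and the deposited FPKM values equal the count over gene length and a constant per library. The sources used here do not give how strand and multiply matching reads were handled, and overlapping genes and near-identical copies are uncertain.

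Counts of the 13776 genes that passed filterByExpr were fitted in R 4.3.3 with edgeR 4.0.16 (TMM scaling, robust quasi-likelihood test, genotype as the single term). Calls are at a Benjamini-Hochberg adjusted p under 0.05 over all tested genes, and every adjusted p is from this fit unless another is named. Standard errors follow from the log2 change and its quasi-F value. CPM are on the TMM scale. The fit was also run on counts simulated with the spread estimated from these libraries, so that run says nothing about spread between animals. Groups and replicate numbers come from the sample titles.

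The members, lists and locations were chosen with earlier results of these data known. Named with values per library were the 5 called members with the largest change in each direction and location, the 3 most abundant of each location, and a set of well known chaperones, and other members were named with or without values. Shared sequence was counted as 100-base windows of the longest coding transcript found in transcripts of other genes (GENCODE, GRCm38). Alternatives were other scalings and filters, DESeq2 1.42.0, limma 3.58.1 on log2(FPKM + 1) or log2(FPKM + 0.1), removal of a gene length trend, a fixed BCV of 0.2, the Hspa1 pair summed, a replicate block and leaving out each library.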

Additional observations from a re-analysis of the deposited data

How the results depend on the processing

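Main counts were 4181 genes called in all, 9 members higher and 42 lower, 32 cytosolic, 9 ER and 6 mitochondrial members called, 25 partners and 14 immediate early genes. With the BCV fixed at 0.2 these became 371 in all, 1 higher, 7 lower, 8 cytosolic, 0 ER, 0 mitochondrial, 1 partner and 3 immediate early genes. The higher members numbered 5 in DESeq2, 4 with limma on log2(FPKM + 1) and 5 on log2(FPKM + 0.1), and both limma fits called 5 ER members. Leaving out 1 library at a time gave 3377 to 3909 genes in all, 5 to 8 higher and 37 to 39 lower members, 28 to 31 cytosolic, 6 to 8 ER and 5 to 6 mitochondrial members, 21 to 26 partners and 14 to 15 immediate early genes. With total counts in place of TMM, 36 members were lower, and of all genes 2515 were higher and 1592 lower. With the gene length trend removed Dnajb14 reversed to -0.0164 with or without the replicate block and Dnajc13 to -0.0121, or -0.0123 with the block, and neither was called. Same-numbered libraries did not deviate together (r of -0.0079, 0.0031 and 0.0361), so the numbers were not taken as pairs, and the replicate block gave 4230 genes in all and kept all 42 lower and 9 higher member calls. In every setting 7 members were called lower and 0 higher, and in every setting but the fixed BCV 32 were lower and 3 higher. At this depth members with few reads, such as Hspa12b (0.64, SE 0.45), could not be resolved.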
